A study of Mus musculus with 9 samples.

Results

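The genes described here are the enzymes that make cholesterol and fatty acids, with the proteins that set their transcription and the transporters that carry cholesterol out of the cell. The 34 members were named from what the genes do, but with earlier results of these data known. They come from the 56860 genes of a count table of RNA sequencing from mouse spleen cells labelled CD4+ T cells. Shares over all genes, set beside the members below, are therefore descriptive. Of the 34 members, 18 are sterol synthesis enzymes, 8 are fatty acid synthesis enzymes, 5 form the SREBP control system, 1 is a sterol carrier and 2 are cholesterol efflux transporters. All 34 were found in the table and all 34 passed the filter on low counts. The 9 libraries fall into 3 groups of 3: mice with CIA given luteolin, mice with CIA, and control mice. The labels do not spell out CIA, which in mouse work on rheumatoid arthritis usually stands for collagen-induced arthritis. Luteolin is a plant flavonoid, and the title of the series names its question as what luteolin does to Th17 cell differentiation in rheumatoid arthritis. Strain, age, sex, and the dose, route and duration of luteolin are not given in the labels, nor do they say that replicates are separate mice, so each p-value rests on the spread among libraries, which may be technical.

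Cholesterol is built from acetyl-CoA through the mevalonate pathway to farnesyl diphosphate, squalene and lanosterol, and fatty acids are built from the same acetyl-CoA by carboxylation, chain extension and desaturation. When membranes in the endoplasmic reticulum are poor in sterol, SCAP carries the SREBP transcription factors to the Golgi, where they are cut and freed to switch on the genes of both pathways, and INSIG proteins hold SCAP back when sterol is plentiful. Surplus cholesterol is oxidised to oxysterols that activate the LXR receptors, which raise the export pumps ABCA1 and ABCG1 and the SREBP-1c form, and proliferating lymphocytes are known to draw on the synthetic arm.

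Libraries held 31234177 to 41815573 counts. Levels are given in CPM, with library sizes scaled by TMM, and "called" means a Benjamini-Hochberg adjusted p under 0.05 in edgeR's quasi-likelihood test over 19348 genes. Calls were common: 51.1% of genes in CIA against control, 47.3% in CIA with luteolin against CIA, and 45.0% in CIA with luteolin against control. In that order, 26.6%, 23.1% and 24.2% were called higher and 24.5%, 24.2% and 20.8% lower. Counts of cell markers called, here and below, stand beside these shares. The labelled cell type was only partly borne out by its markers. Cd4, the defining coreceptor, stood at 106, 106 and 98.5 CPM in CIA with luteolin and 82.1, 151 and 150.3 CPM in CIA, but at only 3.65, 2.46 and 2.66 CPM in libraries labelled control, and S100a9, a neutrophil granule gene, was between 1503 and 8339 CPM in all 9. Of 8 T cell markers, 6 (Cd3d, Cd3e, Cd3g, Cd247, Cd5 and Cd4) rose in CIA against control, 3 fell and none rose with luteolin against CIA, and 6 rose with luteolin against control. Lck and Cd2 were not called in CIA against control, at 0.05 and 0.19 on the log2 scale. The T cell sum was 450.3 to 480.2 CPM in CIA with luteolin, 469 to 672 CPM in CIA and 302 to 333 CPM in libraries labelled control. Cd8a and Cd8b1, which mark CD8 T cells, both fell in CIA and in CIA with luteolin against control and were not called with luteolin against CIA, with sums of 10.2 to 13.7, 12.04 to 15.1 and 36.3 to 55.2 CPM in CIA with luteolin, CIA and control. The part of these cells in the members' results was not tested. In such bulk libraries, fewer cells of a type and less RNA per cell cannot be told apart. CIA replicates differed from each other more than the other groups did, in a chi-square test of their counts (32.2 to 114 per degree of freedom between CIA libraries, against 5.51 to 16.1 within the other groups).

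The summed level of sterol synthesis enzymes was lower in CIA than in libraries labelled control, and higher in CIA with luteolin than in CIA. Summed over the 18 enzymes, the level was 566, 585 and 566 CPM in CIA with luteolin, 429, 446 and 453 CPM in CIA, and 541, 537 and 585 CPM in libraries labelled control. The 3 CIA sums lay below all 6 others, while the luteolin and control sums overlapped. The rise with luteolin against CIA differed along the pathway. From acetyl-CoA to farnesyl diphosphate (7 enzymes) the sums were 321 to 341 CPM in CIA with luteolin and 209 to 212 CPM in CIA. From lanosterol to cholesterol (8 enzymes) the sums of these groups overlapped, at 167 to 171 and 156 to 172 CPM. In CIA against control 10 of the 18 fell, 1 rose and 7 were not called, where 24.5% of all genes tested fell and 26.6% rose. Their median log2 fold change was -0.44, beside -0.01 over all genes tested. With luteolin, 9 of the 18 rose against CIA, 1 fell and 8 were not called, where 23.1% of all genes rose and 24.2% fell, and the median was 0.34, beside -0.04 over all genes. These comparisons share the CIA libraries, so a low value there moves both. Against control, luteolin gave 3 that rose, 3 that fell and 12 not called, where 24.2% of all genes rose and 20.8% fell, with a median of -0.09, beside -0.01 over all genes.

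Over all 34 members, the libraries of CIA lay wholly above those labelled control in 4 members and wholly below in 20, where 29.7% and 29.1% of all genes tested did. Luteolin libraries lay wholly above CIA in 19 members and wholly below in 3 (28.0% and 27.7% of all genes), and wholly above control in 11 and wholly below in 11 (32.3% and 30.9% of all genes). Changes of 2-fold or more were fewer. Such calls were 1 higher (Fads2) and 2 lower (Abca1 and Scd1) in CIA against control, where 13.8% of all genes were higher and 7.6% lower by that rule. They were 4 higher (Fdps, Abca1, Abcg1 and Fads2) and none lower in CIA with luteolin against CIA (10.5% and 8.37% of all genes), and 3 higher (Fdps, Fads1 and Fads2) and 1 lower (Scd1) in CIA with luteolin against control (13.2% and 5.8% of all genes).

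**Figure D1:**
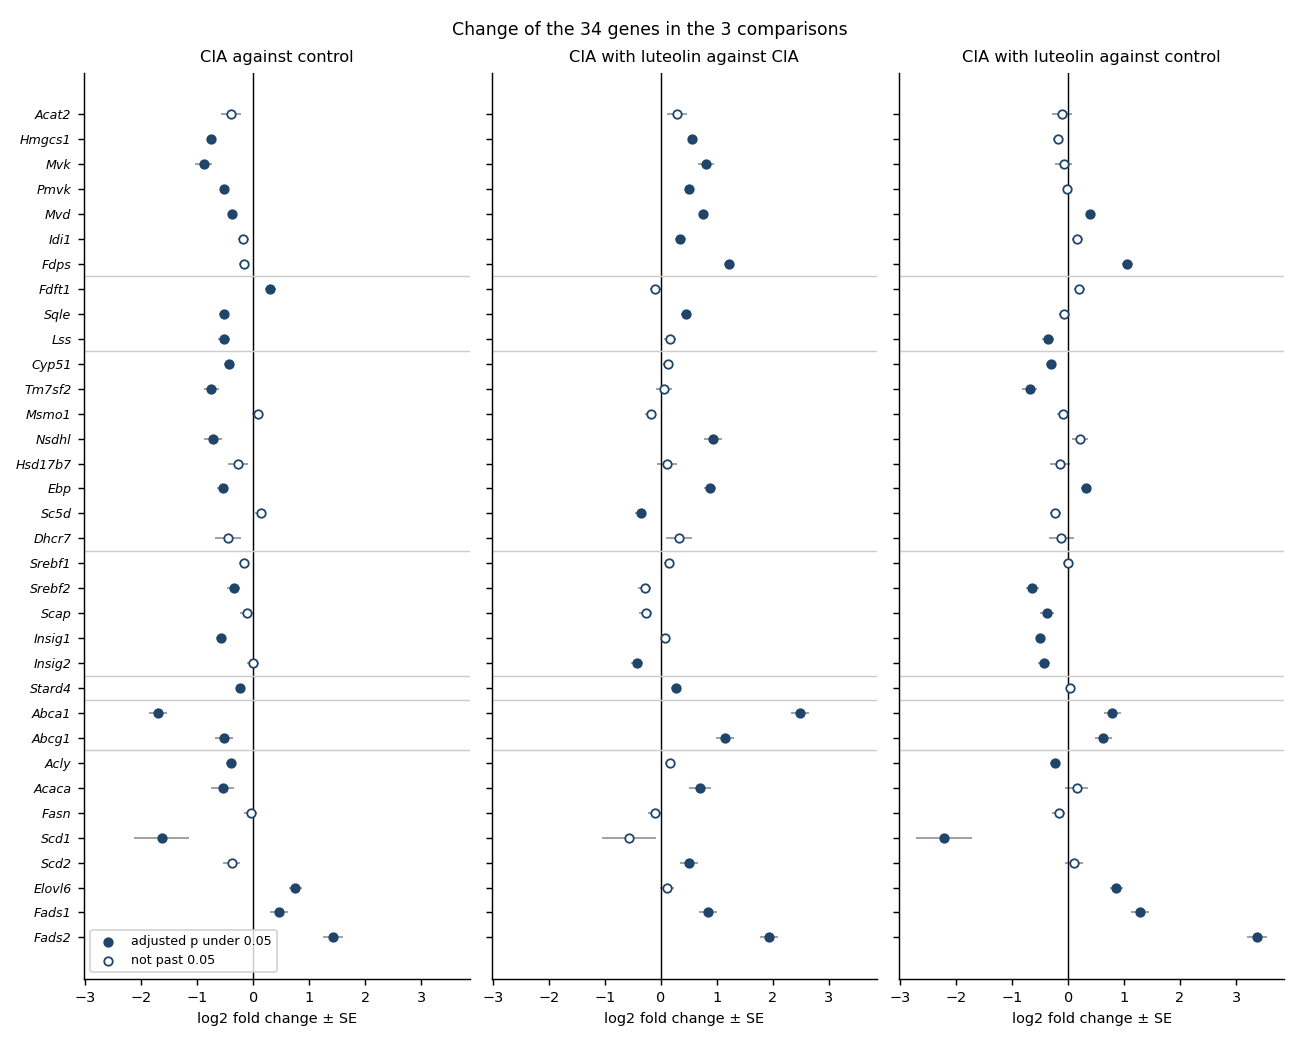
Log2 fold change of each of the 34 members, in rows ordered by role and parted by grey lines, in CIA against control, CIA with luteolin against CIA and CIA with luteolin against control, with bars of 1 SE and filled points for called genes. Sterol enzymes lie mostly left of 0 in CIA against control and right of 0 in CIA with luteolin against CIA, while Abca1, Scd1 and Fads2 reach furthest from 0.

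The same groups differed in markers of dividing cells. All 6 of 6 such markers (Mki67, Top2a, Ccnb1, Cdk1, Birc5 and Tpx2) fell in CIA against control, and all 6 of 6 rose in CIA with luteolin against CIA and against control. Their summed level was 2067 to 2115 CPM in CIA with luteolin, 332 to 438 CPM in CIA and 1129 to 1155 CPM in libraries labelled control, and none was at 0 in any group. Their part in the result for the sterol enzymes was not tested.

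Among the 7 enzymes of the mevalonate stretch, 4 fell in CIA against control, none rose, and 6 rose in CIA with luteolin against CIA. Over all genes tested, 24.5% fell and 26.6% rose in the first comparison, and 23.1% rose in the second. Hmgcs1, the synthase that makes HMG-CoA at the head of the pathway, was at 89.1, 96.7 and 89.7 CPM in CIA with luteolin, 66.7, 62.8 and 57.2 CPM in CIA and 105, 101 and 108 CPM in libraries labelled control. Its CIA values lay below every other value, and the luteolin values lay a little below the control ones. The log2 fold change (given ± SE, as are all those that follow) was -0.75 ± 0.08, adjusted p = 5.96e-05 in CIA against control, 0.56 ± 0.08, adjusted p = 0.000284 in CIA with luteolin against CIA, and -0.19 ± 0.08, adjusted p = 0.0771 in CIA with luteolin against control. Mvk, the kinase that phosphorylates mevalonate, had 3.92, 4.53 and 4.28 CPM in CIA with luteolin, 2.61, 2.57 and 2.05 CPM in CIA and 4.38, 4.25 and 4.84 CPM in libraries labelled control. Again the CIA group stood alone at the bottom, while the other groups overlapped. Mvk changed by -0.89 ± 0.15, adjusted p = 0.000923 in CIA against control and by 0.81 ± 0.15, adjusted p = 0.00168 in CIA with luteolin against CIA.

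The next kinase, Pmvk, was at 49.3, 51.3 and 48.4 CPM in CIA with luteolin, 34.2, 36.5 and 33.9 CPM in CIA and 49.7, 49.9 and 50.95 CPM in libraries labelled control. This gave a fall in CIA (-0.52 ± 0.07, adjusted p = 0.000269) and a rise of like size with luteolin (0.51 ± 0.07, adjusted p = 0.000287), and luteolin and control values overlapped. Mvd, the decarboxylase that yields isopentenyl diphosphate, was at 46.8, 45.8 and 44.6 CPM in CIA with luteolin, 26.2, 27.1 and 27.5 CPM in CIA and 33.1, 35.3 and 36.6 CPM in libraries labelled control. Here the luteolin values were above both other groups, and Mvd rose in CIA with luteolin against CIA (0.76 ± 0.08, adjusted p = 2.69e-05) and against control (0.39 ± 0.08, adjusted p = 0.00221), beside a smaller fall in CIA against control (-0.38 ± 0.08, adjusted p = 0.00241).

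Fdps, which joins isoprene units into farnesyl diphosphate, the branch point between sterols and other isoprenoids, had the largest rise with luteolin among the 18 sterol enzymes. It stood at 66.1, 72.8 and 69.5 CPM in CIA with luteolin, 28.8, 29.8 and 30.9 CPM in CIA and 32.6, 30.9 and 36.6 CPM in libraries labelled control. The luteolin values were far above both other groups, and the CIA and control values overlapped. Fdps rose by 1.22 ± 0.09, adjusted p = 2.47e-06 in CIA with luteolin against CIA and by 1.06 ± 0.09, adjusted p = 9.29e-06 in CIA with luteolin against control, and its value in CIA against control was -0.16 ± 0.09, adjusted p = 0.15. Idi1, the isomerase just upstream, rose with luteolin against CIA (0.35 ± 0.10, adjusted p = 0.0127) and was not called in CIA against control (-0.18 ± 0.10, adjusted p = 0.136). Acat2, a thiolase that condenses acetyl-CoA, was not called in any comparison (-0.40 in CIA against control, 0.29 in CIA with luteolin against CIA). It had 1699 counts over all libraries, against 7604 for its near-identical neighbour Acat3, so its level is uncertain. With 1 library left out, the CIA against control calls were gained for Idi1 (-0.25 without CIA replicate 3) and Acat2 (-0.52 without control replicate 1), and for Hmgcs1 the luteolin against control call was gained without CIA replicate 1 or 3 (-0.19 each). Idi1-ps1, by its name a pseudogene of Idi1, had 2639 counts over all libraries, against 18451 for Idi1. Hmgcs1 shares 12.12% of its exonic bases with an antisense gene, Gm48342, and Idi1 shares 9.22% with Gm48574. The strand setting of the counting is not stated.

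Upstream DNA is shown for Hmgcs1, Mvk, Nsdhl and Ebp, 4 of the 6 sterol enzymes that fell in CIA, rose with luteolin and have a window in the promoter table. The other two, Pmvk and Mvd, are not printed, and the 2 windows of Pmvk hold 1 CCAAT match and no GC box. Each line gives the 250 bases before the annotated start, from RefSeq on GRCm38.p6, read 5′ to 3′ on the gene's strand. Capitals mark the CCAAT box, which binds NF-Y, a partner of SREBP on sterol promoters, and which reads ATTGG when it lies on the other strand. In Hmgcs1 capitals also mark TCACCCCAC, a match to a sterol regulatory element, the SREBP site.
Hmgcs1 (chr13:119690101-119690350, strand +): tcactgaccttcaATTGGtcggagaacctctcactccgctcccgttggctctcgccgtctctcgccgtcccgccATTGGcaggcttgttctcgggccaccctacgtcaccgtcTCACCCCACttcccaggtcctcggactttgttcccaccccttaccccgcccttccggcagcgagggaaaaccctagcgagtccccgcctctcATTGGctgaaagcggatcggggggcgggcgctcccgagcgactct
Mvk (chr5:114444019-114444268, strand +): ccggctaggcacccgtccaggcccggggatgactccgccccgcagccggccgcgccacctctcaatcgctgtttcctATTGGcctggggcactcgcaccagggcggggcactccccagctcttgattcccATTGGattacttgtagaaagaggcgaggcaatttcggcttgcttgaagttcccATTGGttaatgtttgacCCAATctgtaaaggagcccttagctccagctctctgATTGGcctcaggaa
Nsdhl (chrX:72918271-72918520, strand +): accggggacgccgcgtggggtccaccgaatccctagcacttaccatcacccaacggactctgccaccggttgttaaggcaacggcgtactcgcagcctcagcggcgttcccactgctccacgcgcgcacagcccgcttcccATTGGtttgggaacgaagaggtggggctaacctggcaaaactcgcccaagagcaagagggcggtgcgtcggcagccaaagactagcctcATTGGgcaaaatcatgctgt
Ebp (chrX:8193513-8193762, strand -): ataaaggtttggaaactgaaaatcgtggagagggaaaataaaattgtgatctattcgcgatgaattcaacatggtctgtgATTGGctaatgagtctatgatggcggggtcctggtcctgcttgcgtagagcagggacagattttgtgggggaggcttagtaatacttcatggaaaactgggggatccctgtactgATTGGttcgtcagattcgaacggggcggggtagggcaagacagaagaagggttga

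Motifs were counted on both strands in windows of 300 bases, 250 before to 50 after the start, for the 26 members with a RefSeq window. No match overlapped a match to another motif. CCAAT was present in 14 of the 18 windows of sterol enzymes (77.8%), belonging to 14 of 15 genes, against 37.4% of all 32851 promoter windows. GGGCGG, the GC box bound by Sp1, was in 15 of these 18 windows (83.3%), against 35.7% of all windows. The 5 windows of fatty acid enzymes held CCAAT in 2 and GGGCGG in 2. TCACNCCAC was found in Hmgcs1 alone among the members, 137 to 129 bases before the start, which is 5.56% of the sterol windows against 1.24% of all windows. GGTCA followed after 4 free bases by AGGTCA, a strict form of the LXR response element, was in none of the 34 member windows and in 0.0213% of all windows. A match is a description of the letters, not a binding site shown in these cells. No window was matched for Fdps, Fdft1, Sqle, Stard4, Abcg1, Scd1, Scd2 and Fads1.

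**Figure D2:**
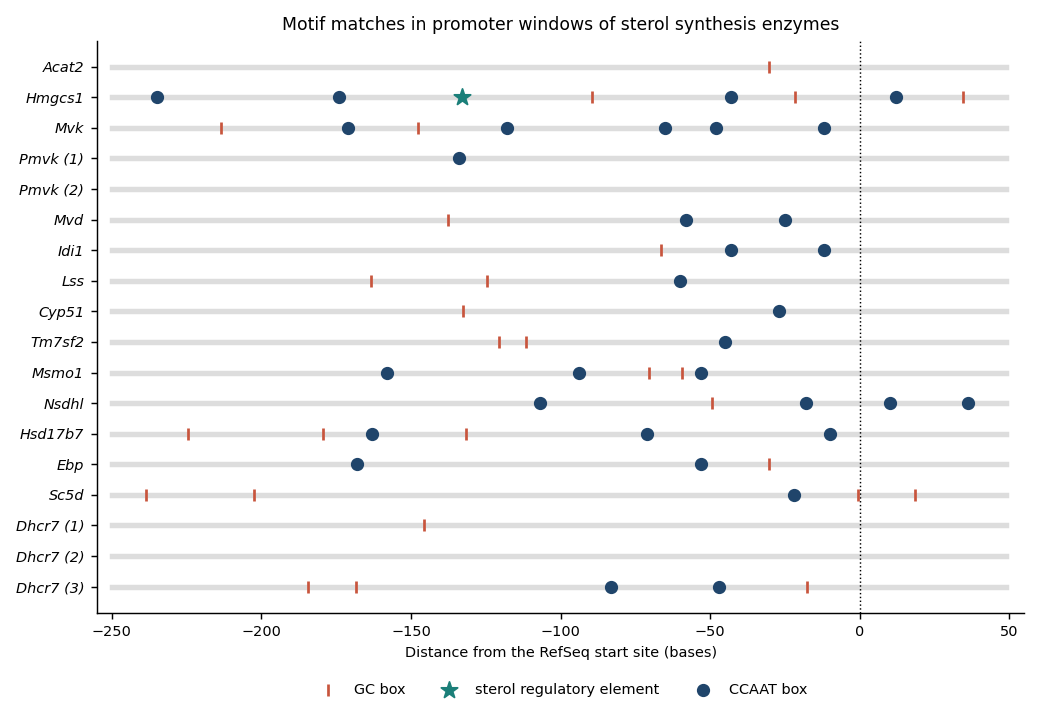
Matches to the GC box, the sterol regulatory element and the CCAAT box in the 18 promoter windows of sterol synthesis enzymes, 1 row a window, by distance in bases from the RefSeq start site (dotted line, 0). CCAAT matches are in 14 of the 18 windows, and the 1 sterol regulatory element match is in Hmgcs1.

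Of the 3 enzymes that make squalene and lanosterol, 2 fell and 1 rose in CIA against control, and 1 rose with luteolin against CIA. Over all genes tested, 24.5% fell and 26.6% rose in the first comparison, and 23.1% rose in the second. Sqle, the epoxidase that is a further rate-limiting step of the pathway, was at 22.7, 25.5 and 25.8 CPM in CIA with luteolin, 18.7, 18.4 and 17.2 CPM in CIA and 24.1, 26.6 and 27.1 CPM in libraries labelled control. Its CIA values were below both other groups, which overlapped, and it fell in CIA (-0.52 ± 0.09, adjusted p = 0.00117) and rose with luteolin against CIA (0.45 ± 0.09, adjusted p = 0.00287). Lss, which closes squalene epoxide to lanosterol, had 15.8, 14.2 and 14.8 CPM in CIA with luteolin, 13.3, 14.5 and 12.1 CPM in CIA and 18.8, 17.96 and 20.7 CPM in libraries labelled control. All CIA and luteolin values were below the control ones and overlapped each other, with a fall in CIA against control (-0.53 ± 0.11, adjusted p = 0.00223), no call with luteolin against CIA (0.17 ± 0.11, adjusted p = 0.223) and a fall with luteolin against control (-0.36 ± 0.11, adjusted p = 0.0176). Fdft1, squalene synthase, was the 1 sterol enzyme that rose in CIA (0.30 ± 0.10, adjusted p = 0.0234). Its call was lost without control replicate 1 or 2 or CIA replicate 2 or 3, at 0.23 to 0.30, and 18.8% of its exonic bases lie under Ctsb on the other strand, a gene with 200846 counts against 11016 for Fdft1. The Lss call in luteolin against control was lost without control replicate 3, or luteolin replicate 2 or 3, at -0.35 to -0.27.

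From lanosterol to cholesterol, 4 of 8 enzymes fell in CIA, none rose, and 2 rose and 1 fell with luteolin against CIA. Over all genes tested, 24.5% fell and 26.6% rose in CIA against control. With luteolin against CIA 23.1% rose and 24.2% fell, so the 2 rises were near the share over all genes. Nsdhl, which takes part in stripping the methyl groups at carbon 4 of the ring, was at 7.29, 6.12 and 6.35 CPM in CIA with luteolin, 4.14, 3.45 and 2.78 CPM in CIA and 5.65, 5.84 and 5.60 CPM in libraries labelled control. Its luteolin values lay above the control ones, and the control ones above those of CIA. Nsdhl fell in CIA against control (-0.72 ± 0.16, adjusted p = 0.00386) and rose with luteolin against CIA (0.93 ± 0.16, adjusted p = 0.000874). Ebp, the isomerase that shifts the ring double bond, was at 24.3, 22.7 and 23.96 CPM in CIA with luteolin, 13.9, 13.1 and 11.7 CPM in CIA and 19.5, 18.2 and 19.1 CPM in libraries labelled control. The order of the groups was the same and none overlapped: -0.55 ± 0.10, adjusted p = 0.000897 in CIA against control, 0.88 ± 0.10, adjusted p = 4.51e-05 in CIA with luteolin against CIA, and 0.32 ± 0.09, adjusted p = 0.0175 in CIA with luteolin against control.

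The other enzymes of this stretch had other orders of groups. Tm7sf2, a sterol reductase of the lanosterol stage, was at 6.53, 6.04 and 5.46 CPM in CIA with luteolin, 6.59, 5.002 and 5.72 CPM in CIA and 9.48, 10.4 and 9.34 CPM in libraries labelled control. It was low in both CIA groups, and fell in CIA against control (-0.75 ± 0.14, adjusted p = 0.00111) and with luteolin against control (-0.69 ± 0.13, adjusted p = 0.00188). Cyp51, the demethylase that acts on lanosterol, likewise fell in both (-0.43 ± 0.09, adjusted p = 0.00308 in CIA against control and -0.30 ± 0.09, adjusted p = 0.0214 with luteolin against control), and its value with luteolin against CIA was 0.13 ± 0.09, adjusted p = 0.272. Sc5d, the desaturase near the end of the pathway, fell with luteolin against CIA, at 38.5, 37.7 and 35.96 CPM in CIA with luteolin and 41.5, 49.6 and 52.9 CPM in CIA (-0.36 ± 0.10, adjusted p = 0.0109). Msmo1, Hsd17b7 and Dhcr7, which act on the methyl groups and on the last double bond, were not called in any comparison, at 0.08, -0.27 and -0.45 in CIA against control and -0.18, 0.11 and 0.33 in CIA with luteolin against CIA. Tm7sf2 shares 12.08% of its exonic bases with Vps51 on the same strand.

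Several of these calls turned on 1 library. In CIA against control, Sc5d was called without CIA replicate 1 (0.22) and Dhcr7 without CIA replicate 2 (-0.71). In CIA with luteolin against CIA, Msmo1 was called without CIA replicate 1 (-0.28), and the Sc5d call was lost without luteolin replicate 2 (-0.31) or 3 (-0.32), so that the sterol enzymes called lower there numbered 0 to 2. In CIA with luteolin against control, the Cyp51 call was lost without control replicate 3 or any 1 luteolin library (-0.30 to -0.22), the Ebp call without control replicate 2 or luteolin replicate 1 or 3 (0.29 to 0.32), and Sc5d was called without CIA replicate 1 or 3 (-0.23 each). The sterol enzymes called lower in that comparison then numbered 1 to 5.

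**Figure D3:**
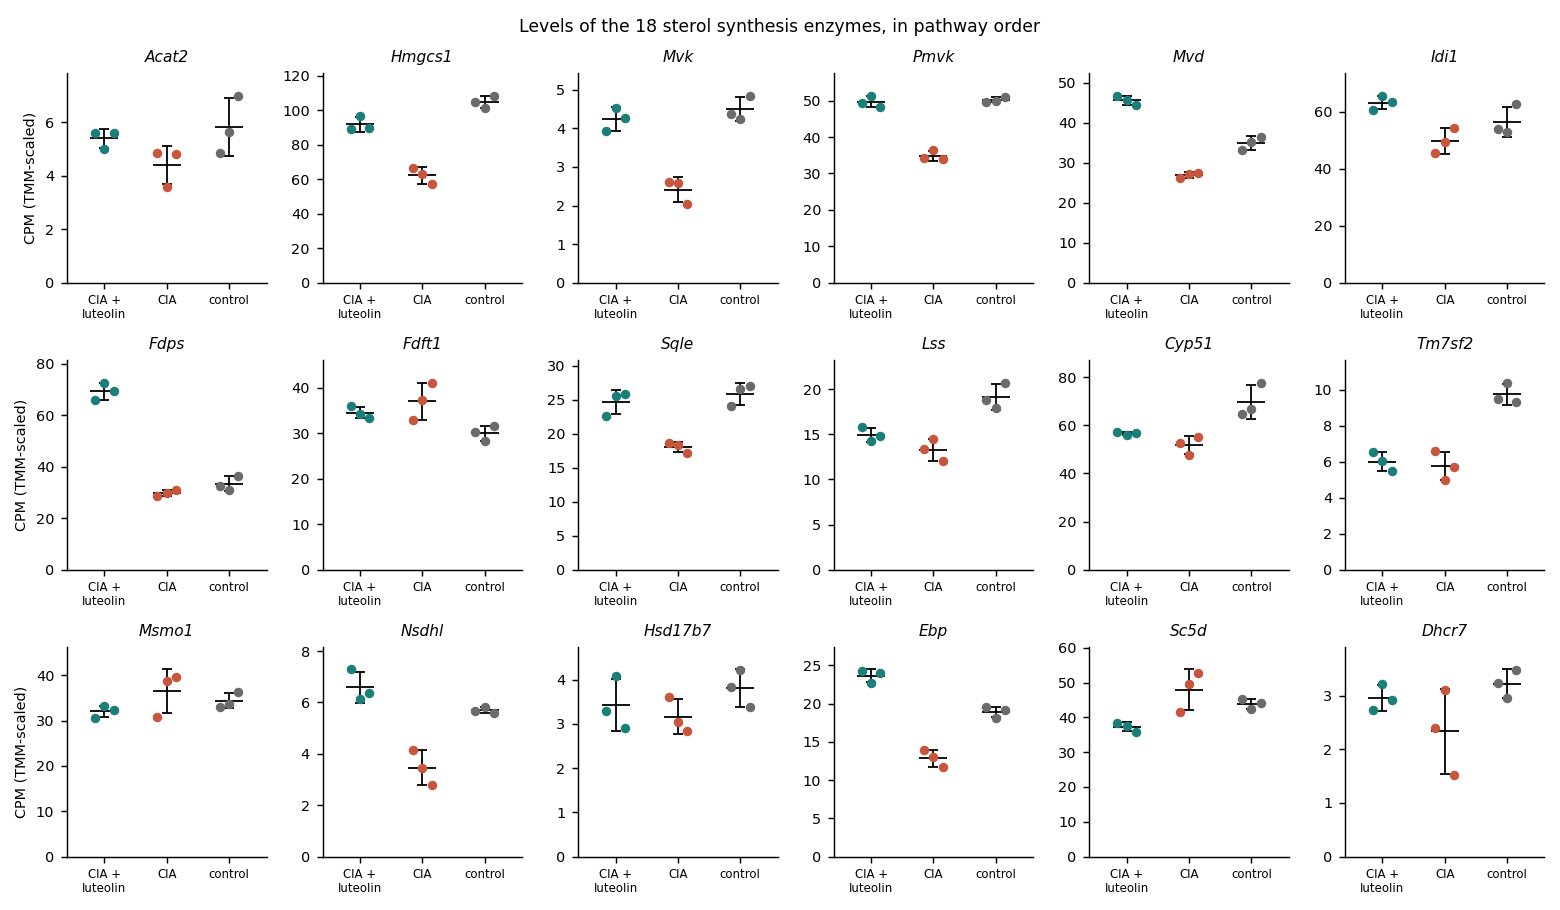
CPM after TMM scaling in each library, with the group mean and SD, for each of the 18 sterol synthesis enzymes, in CIA with luteolin, CIA and control from left to right. Hmgcs1, Mvk, Pmvk, Mvd, Sqle, Nsdhl and Ebp are lowest in all 3 CIA libraries, and Fdps is higher in the luteolin libraries, at 66.1 to 72.8 CPM, than in both other groups.

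None of the 5 genes of the SREBP control system was called higher with luteolin. Of the 5, 2 fell in CIA against control and 3 were not called, in CIA with luteolin against CIA 1 fell and 4 were not called, and in CIA with luteolin against control 4 fell and 1 was not called. Over all genes tested 24.5%, 24.2% and 20.8% fell in these comparisons, and 26.6%, 23.1% and 24.2% rose. Among only 5 genes, no rise is not far from those shares. Srebf2, which encodes the main activator of the cholesterol genes, was at 76.7, 77.9 and 80.8 CPM in CIA with luteolin, 115, 93.4 and 78.9 CPM in CIA and 115, 126 and 125 CPM in libraries labelled control. CIA values spread widely, from the luteolin level up to the lowest control value. Srebf2 fell with luteolin against control (-0.64 ± 0.12, adjusted p = 0.00159) and in CIA against control (-0.35 ± 0.12, adjusted p = 0.0308), and its value with luteolin against CIA was -0.29 ± 0.12, adjusted p = 0.0695. Srebf1, which encodes the forms that drive mainly fatty acid genes, was at 18.4, 19.6 and 19.3 CPM in CIA with luteolin, 18.04, 17.1 and 16.3 CPM in CIA and 19.01, 19.2 and 19.1 CPM in libraries labelled control, and the groups lay close together. It was not called in any comparison (-0.16 ± 0.09, adjusted p = 0.148 in CIA against control and 0.15 ± 0.09, adjusted p = 0.165 in CIA with luteolin against CIA).

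Insig1, a retention protein that is itself an SREBP target, was at 34.98, 32.5 and 35.2 CPM in CIA with luteolin, 32.8, 30.3 and 34.04 CPM in CIA and 51.1, 48.2 and 46.1 CPM in libraries labelled control. Both CIA groups lay below control and overlapped each other. Insig1 fell in CIA against control (-0.58 ± 0.08, adjusted p = 0.000305) and with luteolin against control (-0.50 ± 0.08, adjusted p = 0.000786), and was 0.08 ± 0.08, adjusted p = 0.454 with luteolin against CIA. Insig2, its paralogue, was at 8.69, 8.25 and 8.14 CPM in CIA with luteolin, 11.5, 10.2 and 11.9 CPM in CIA and 11.8, 10.4 and 11.7 CPM in libraries labelled control. It was low in the luteolin libraries alone, with a fall against CIA (-0.42 ± 0.11, adjusted p = 0.00863) and against control (-0.43 ± 0.11, adjusted p = 0.00781). Scap, the escort protein, was at 9.21, 9.74 and 9.03 CPM in CIA with luteolin, 12.4, 10.9 and 10.4 CPM in CIA and 11.1, 11.7 and 13.8 CPM in libraries labelled control. Its luteolin values were below both other groups, which overlapped, and it fell with luteolin against control (-0.38 ± 0.12, adjusted p = 0.0249), while luteolin against CIA gave -0.27 ± 0.12, adjusted p = 0.0946. Scap shares 13.23% of its exonic bases with the antisense gene 5830462I19Rik.

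Stard4, which moves cholesterol between membranes and is an SREBP target, was at 37.05, 38.8 and 40.8 CPM in CIA with luteolin, 33.8, 30.3 and 32.3 CPM in CIA and 35.8, 37.99 and 39.6 CPM in libraries labelled control. CIA was below both other groups by a small margin, with -0.23 ± 0.08, adjusted p = 0.0382 in CIA against control and 0.27 ± 0.08, adjusted p = 0.0202 in CIA with luteolin against CIA. The CIA against control call of Srebf2 was lost without control replicate 2 or 3, CIA replicate 2 or 3, or luteolin replicate 2 (-0.35 to -0.23), and that of Stard4 without control replicate 2 or 3, CIA replicate 2 or any 1 luteolin library (-0.24 to -0.19). With luteolin against CIA, the Stard4 call was lost without CIA replicate 2 (0.24) or luteolin replicate 3 (0.25), the Insig2 call without luteolin replicate 2 (-0.36, and -0.37 against control), and Srebf2 (-0.42) and Scap (-0.32) were called without CIA replicate 3. The Scap call in luteolin against control was lost without control replicate 3 or any 1 luteolin library (-0.37 to -0.28).

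Both cholesterol exporters fell in CIA against control and rose with luteolin, where luteolin values passed those of the libraries labelled control. Of all genes tested, 24.5% fell in CIA against control, 23.1% rose with luteolin against CIA and 24.2% rose with luteolin against control. Abca1, which loads cholesterol onto apolipoprotein particles, was at 108, 105 and 110.4 CPM in CIA with luteolin, 24.5, 18.05 and 14.7 CPM in CIA and 66.2, 63.3 and 56.6 CPM in libraries labelled control. The 3 groups did not overlap, and CIA was lowest by a wide margin. Abca1 fell in CIA against control (-1.70 ± 0.16, adjusted p = 2.37e-05) and rose with luteolin by 2.49 ± 0.16, adjusted p = 1.08e-06 against CIA and by 0.79 ± 0.15, adjusted p = 0.00173 against control. Abcg1, which exports cholesterol to mature lipoprotein particles, was at 32.8, 30.9 and 34.4 CPM in CIA with luteolin, 14.1, 11.3 and 18.8 CPM in CIA and 21.4, 22.03 and 19.9 CPM in libraries labelled control. It had the same order of groups with smaller steps: -0.52 ± 0.16, adjusted p = 0.0178 in CIA against control, 1.15 ± 0.16, adjusted p = 0.000194 in CIA with luteolin against CIA, and 0.63 ± 0.15, adjusted p = 0.00693 in CIA with luteolin against control. The Abcg1 call in CIA against control was lost without control replicate 2 (-0.49) or CIA replicate 2 (-0.36).

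Nr1h3 encodes LXRα and Nr1h2 encodes LXRβ, and both receptors are known to raise the exporters. Nr1h3 had 8.19, 6.59 and 7.72 CPM in CIA with luteolin, 1.81, 1.02 and 1.03 CPM in CIA and 8.45, 8.53 and 5.57 CPM in libraries labelled control. CIA alone was low, and Nr1h3 changed by -2.54 ± 0.25, adjusted p = 3.6e-05 in CIA against control, by 2.53 ± 0.25, adjusted p = 2.36e-05 in CIA with luteolin against CIA and by -0.01 ± 0.22, adjusted p = 0.984 in CIA with luteolin against control. Nr1h2 was at 74.02, 71.7 and 70.3 CPM in CIA with luteolin, 72.9, 70.99 and 78.5 CPM in CIA and 64.8, 73.1 and 76.8 CPM in libraries labelled control. Its groups overlapped, and it was not called in any comparison (0.05 ± 0.08, adjusted p = 0.636 in CIA against control and -0.04 ± 0.08, adjusted p = 0.711 in CIA with luteolin against CIA). Mylip, a ubiquitin ligase that is also an LXR target, fell in CIA against control (-0.82 ± 0.20, adjusted p = 0.00591) and was not called with luteolin against CIA (-0.20 ± 0.20, adjusted p = 0.434). In the same list of sterol transport genes, Lpcat3 rose with luteolin against CIA (0.55 ± 0.14, adjusted p = 0.00864). It was not called in CIA against control (-0.27 ± 0.14, adjusted p = 0.13). Abca7 went opposite to Abca1 and Abcg1, at 0.71 ± 0.11, adjusted p = 0.000476 in CIA against control. With luteolin against CIA it fell (-0.48 ± 0.11, adjusted p = 0.00473). Nr1h2, Mylip, Lpcat3 and Abca7 were named after their values were seen. Of 8 macrophage and monocyte markers (Adgre1, Csf1r, Cd68, Vcam1, Spic, Marco, Cd5l and Lyz2), 5 fell and 1 rose in CIA against control, 7 rose and none fell in CIA with luteolin against CIA, and 5 rose and 1 fell in CIA with luteolin against control. Their summed level was 2601 to 2971 CPM in CIA with luteolin, 1263 to 2945 CPM in CIA and 574 to 757 CPM in libraries labelled control, most of it Lyz2. Lyz2 was the 1 marker that rose in CIA against control (2.40 ± 0.26, adjusted p = 6.16e-05), so the sum does not follow the 5 that fell. None of the 8 markers was at 0 in all 3 libraries of a group. Of the 8, 3 were near 0 in CIA. There Marco was at 0.723, 0.293 and 0.761 CPM, Cd5l at 1.06, 0.176 and 0.0992 CPM and Vcam1 at 0.612, 0.907 and 0.860 CPM. Spic, the red pulp macrophage factor, was at 9.15, 7.66 and 5.62 CPM in CIA, and Adgre1 was at 35.1, 43.2 and 43.7 CPM and not called in CIA against control (-0.10 ± 0.10, adjusted p = 0.439). Vcam1 stood at 37.1, 34.4 and 35.6 CPM in CIA with luteolin and 11.4, 10.96 and 7.53 CPM in libraries labelled control. Of 8 neutrophil markers, all 8 rose in CIA against control, and 3 rose and 5 fell in CIA with luteolin against CIA, with sums of 8211 to 8697 CPM in CIA with luteolin, 6669 to 11278 CPM in CIA and 2044 to 2414 CPM in libraries labelled control. The part of these cells in the levels of Abca1, Abcg1 and Nr1h3 was not tested.

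Fatty acid synthesis enzymes moved in both directions. In CIA against control 3 of the 8 rose, 3 fell and 2 were not called, where 26.6% of all genes rose and 24.5% fell, and the median log2 fold change was -0.22, beside -0.01 over all genes. In CIA with luteolin against CIA 4 rose, none fell and 4 were not called, where 23.1% of all genes rose and 24.2% fell, with a median of 0.33, beside -0.04 over all genes. Luteolin against control gave 3 that rose, 2 that fell and 3 not called, where 24.2% of all genes rose and 20.8% fell, with a median of 0.13, beside -0.01 over all genes. In both comparisons with control, Fads2 and Scd1 had the largest rise and the largest fall of the 8. With luteolin against CIA, Scd1 was not called.

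Fads2, the delta-6 desaturase that starts the making of long polyunsaturated fatty acids, was at 22.6, 22.3 and 19.7 CPM in CIA with luteolin, 4.86, 4.83 and 7.21 CPM in CIA and 2.05, 1.95 and 2.28 CPM in libraries labelled control. It was highest in the luteolin libraries, intermediate in CIA and lowest in control, with no overlap. It rose by 1.43 ± 0.18, adjusted p = 0.000128 in CIA against control, by 1.94 ± 0.16, adjusted p = 6.54e-06 in CIA with luteolin against CIA, and by 3.37 ± 0.18, adjusted p = 5.71e-07 in CIA with luteolin against control. Fads1, the delta-5 desaturase that acts after it, was at 12.3, 11.7 and 9.62 CPM in CIA with luteolin, 5.17, 6.46 and 7.18 CPM in CIA and 3.98, 5.05 and 4.75 CPM in libraries labelled control. The order was the same with smaller steps, and Fads1 rose by 0.84 ± 0.16, adjusted p = 0.0016 in CIA with luteolin against CIA and by 1.29 ± 0.16, adjusted p = 0.000135 against control. Its value in CIA against control, 0.45 ± 0.16, adjusted p = 0.041, lost its call without any 1 of the 9 libraries except CIA replicate 1 and luteolin replicate 3, at 0.35 to 0.52. The same call was lost with no filter (0.44), with only the 6 libraries compared (0.46) and with the replicate number as a block (0.45).

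Scd1, the desaturase that makes oleate from stearate, had the highest level per base of exon of the 34 members in libraries labelled control and the largest fall of the 8 with luteolin against control. It was at 119.6, 128 and 105 CPM in CIA with luteolin, 327, 152 and 45.5 CPM in CIA and 585, 521 and 527 CPM in libraries labelled control. The CIA libraries spread widely among themselves, all below control and on either side of the luteolin values. Scd1 fell in CIA against control (-1.64 ± 0.49, adjusted p = 0.0175) and in CIA with luteolin against control (-2.21 ± 0.50, adjusted p = 0.0047), and its value with luteolin against CIA was -0.57 ± 0.48, adjusted p = 0.355. This last value turned to 0.26 without CIA replicate 1 and was called at -1.03 without CIA replicate 3. Its value in CIA against control was -2.47 without CIA replicate 1, and its call was lost without CIA replicate 2 (-1.55).

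B cell markers ran in the same order as Scd1 and several other members across the CIA libraries, and in the reverse order to others. Of 5 such markers (Cd79a, Cd79b, Ms4a1, Cd22 and Pax5), 3 fell and none rose in CIA against control, 2 fell and none rose in CIA with luteolin against CIA, and 5 fell in CIA with luteolin against control. Their summed level was 330.3, 378 and 305 CPM in CIA with luteolin, 1209.8, 706 and 198 CPM in CIA, and 1525, 1459 and 1509 CPM in libraries labelled control, and none was at 0 in any group. CIA replicate 1 was highest and CIA replicate 3 lowest of the CIA libraries in both Scd1 and this sum. The same order of the CIA libraries was found in Hmgcs1, Mvk, Sqle, Nsdhl, Hsd17b7, Ebp, Srebf1, Srebf2, Scap, Abca1, Acly, Acaca and Scd2. The reverse order was found in Mvd, Idi1, Fdps, Fdft1, Msmo1, Sc5d, Elovl6 and Fads1. Across groups, Abca1 was highest with luteolin (104.6 to 110.4 CPM), where the B cell sum was below every control value. Of all libraries, CIA replicate 3 had both the lowest Abca1 (14.7 CPM) and the lowest B cell sum (198 CPM). The part of B cells in the levels of these members was not tested.

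**Figure D4:**
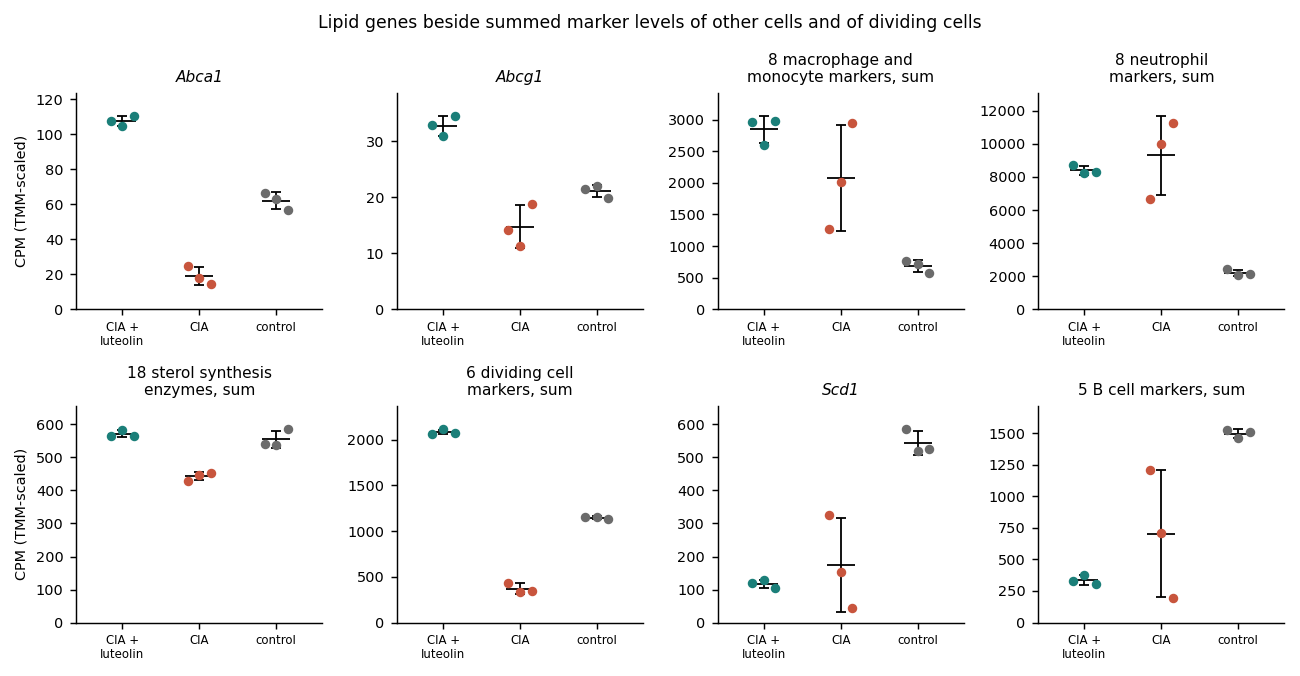
CPM after TMM scaling in each library, with the group mean and SD, of Abca1, Abcg1, Scd1 and the summed sterol enzymes, beside summed markers of macrophages and monocytes, neutrophils, dividing cells and B cells, in CIA with luteolin, CIA and control from left to right. Dividing-cell markers are lowest in CIA, at 332 to 438 CPM, and the B cell sum in the CIA libraries runs between 198 and 1209.8 CPM as Scd1 runs between 45.5 and 327 CPM. The macrophage and monocyte sum is mostly Lyz2, the 1 of its 8 markers that rose in CIA against control.

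Of the remaining fatty acid enzymes, Acly, the citrate lyase that supplies cytosolic acetyl-CoA to both pathways, was at 109.6, 108 and 106 CPM in CIA with luteolin, 106, 96.4 and 86.5 CPM in CIA and 124, 123 and 135 CPM in libraries labelled control. It was lower in CIA than in control (-0.40 ± 0.09, adjusted p = 0.0031), and its luteolin and CIA values overlapped. Acaca, the carboxylase that commits acetyl-CoA to fatty acids, was at 28.7, 32.01 and 28.7 CPM in CIA with luteolin, 24.5, 18.8 and 11.7 CPM in CIA and 26.4, 27.1 and 27.03 CPM in libraries labelled control. CIA values were all lower than both other groups but spread widely, with -0.55 ± 0.20, adjusted p = 0.0436 in CIA against control and 0.70 ± 0.20, adjusted p = 0.0161 in CIA with luteolin against CIA. Fasn, the fatty acid synthase itself, was at 44.1, 45.7 and 46.4 CPM in CIA with luteolin, 54.2, 45.8 and 47.1 CPM in CIA and 50.2, 43.5 and 59.1 CPM in libraries labelled control, and all 3 groups overlapped. It was not called in any comparison (-0.05 ± 0.11, adjusted p = 0.711 in CIA against control and -0.11 ± 0.11, adjusted p = 0.447 in CIA with luteolin against CIA).

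Elovl6, which extends palmitate to stearate, was at 20.3, 19.5 and 21.9 CPM in CIA with luteolin, 17.8, 18.9 and 20.5 CPM in CIA and 12.5, 11.99 and 9.59 CPM in libraries labelled control. Both CIA groups were above control and overlapped each other, with rises in CIA against control (0.75 ± 0.12, adjusted p = 0.000537) and with luteolin against control (0.86 ± 0.12, adjusted p = 0.000247). Scd2, a second stearoyl-CoA desaturase, was at 121, 126 and 126 CPM in CIA with luteolin, 117, 78.98 and 68.9 CPM in CIA and 115, 106 and 125 CPM in libraries labelled control. It rose with luteolin against CIA (0.50 ± 0.16, adjusted p = 0.0269) and was -0.39 ± 0.16, adjusted p = 0.0644 in CIA against control.

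The calls of Acaca, Scd2 and Acly depended on single libraries. The Acaca call in CIA against control was lost without any 1 of 7 libraries (each control and luteolin library and CIA replicate 2, at -0.57 to -0.54), and the value without CIA replicate 3 was -0.31. With luteolin against CIA, Acaca was at 0.46 without CIA replicate 3. The Scd2 rise was lost without CIA replicate 2 or any 1 luteolin library (0.43 to 0.54), while without CIA replicate 1 it was 0.76 and Scd2 was also called in CIA against control (-0.65). Acly was called with luteolin against CIA without CIA replicate 1 (0.25). Its fall with luteolin against control (-0.24 ± 0.09, adjusted p = 0.043) was lost without any 1 library other than CIA replicates 1 and 3 (-0.26 to -0.19) and with the replicate number as a block (-0.24), which left 1 fatty acid enzyme called lower there. In CIA against control the fatty acid enzymes called lower numbered 1 to 4 with 1 library left out, lowest without CIA replicate 2.

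**Figure D5:**
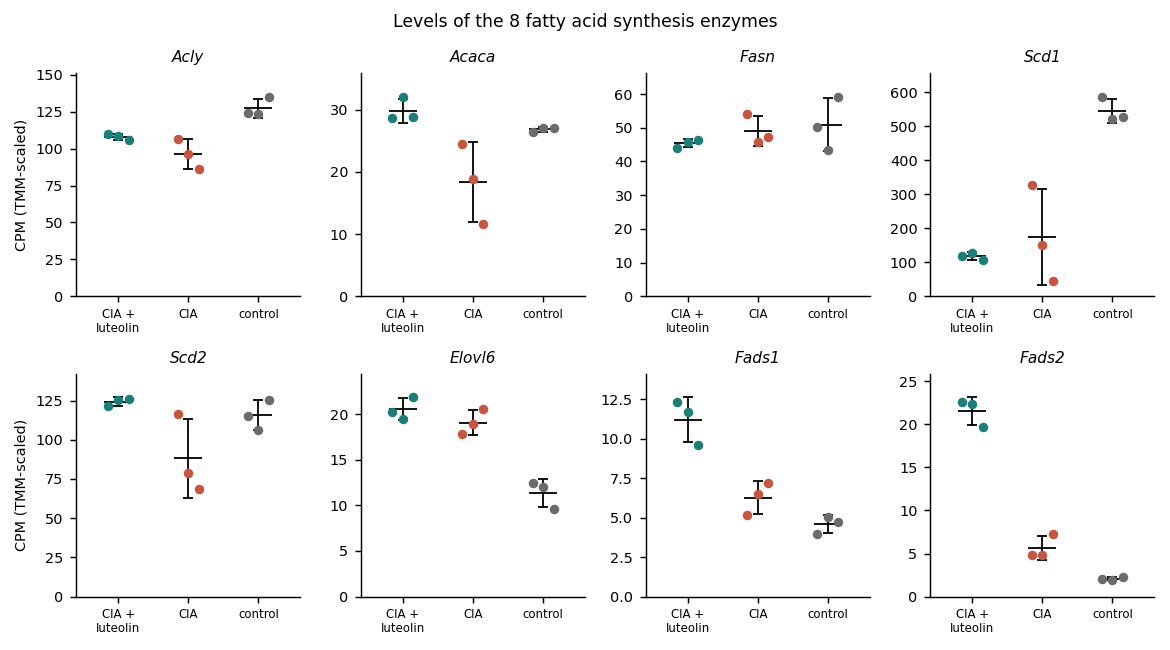
CPM after TMM scaling of each of the 8 fatty acid synthesis enzymes in each library, with the group mean and SD, in CIA with luteolin, CIA and control from left to right. Scd1 is at 521 to 585 CPM in control and spreads from 45.5 to 327 CPM in CIA, and Fads2 is at 19.7 to 22.6 CPM in the luteolin libraries, above CIA and control.

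Levels of different members were compared per length, as mean CPM per kilobase of exon. In libraries labelled control Scd1 came first at 111, followed by Pmvk at 29.3, Acly at 24.2, Hmgcs1 at 22.8 and Scd2 at 21.2, and the lowest were Fads2 at 0.635 and Dhcr7 at 0.553. In CIA with luteolin Pmvk was first at 28.99, ahead of Mvd at 24.6 and Scd1 at 24.03. In CIA Scd1 led at 35.7 on the group mean, though CIA replicate 3 lay far below the others. Fads2 stood at 6.54 in CIA with luteolin, against 1.71 in CIA. Dhcr7, the last reductase of cholesterol synthesis, was the lowest member in all 3 groups.

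Genes that share the pathways but are not members were counted from lists chosen by function, with earlier results of these data known. Of 13 tested genes of sterol transport and oxysterol handling, 2 rose and 4 fell in CIA against control, and 6 rose and 2 fell in CIA with luteolin against CIA. Over all genes tested, 26.6% and 23.1% rose and 24.5% and 24.2% fell in these 2 comparisons. Npc2, which hands cholesterol out of lysosomes, was at 191, 172 and 187 CPM in CIA with luteolin, 37.8, 39.8 and 44.4 CPM in CIA and 83.5, 81.8 and 74.1 CPM in libraries labelled control. CIA was lowest and luteolin highest with no overlap, and Npc2 changed by -0.97 ± 0.09, adjusted p = 2.21e-05 in CIA against control and by 2.17 ± 0.09, adjusted p = 8.06e-08 in CIA with luteolin against CIA. Lipa, the lysosomal lipase that frees cholesterol from its esters, fell in CIA (-0.42 ± 0.09, adjusted p = 0.00275) and rose with luteolin against CIA (0.60 ± 0.09, adjusted p = 0.0003).

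Of 9 genes of SREBP processing and sterol-regulated protein degradation, 1 rose and 5 fell in CIA against control. In CIA with luteolin against CIA, 4 rose and 3 fell. Among all genes tested, 26.6% rose and 24.5% fell in CIA against control. The shares in CIA with luteolin against CIA were 23.1% and 24.2%. Erlin1 and Erlin2, endoplasmic reticulum proteins of the sterol-regulated degradation machinery, rose with luteolin against CIA (1.02 ± 0.12, adjusted p = 6.2e-05 for Erlin1 and 0.49 ± 0.07, adjusted p = 0.000379 for Erlin2). Rnf145, a membrane ubiquitin ligase of the same machinery, went the other way, at 34.03, 33.4 and 31.9 CPM in CIA with luteolin, 59.7, 64.9 and 70.96 CPM in CIA and 43.6, 44.3 and 42.9 CPM in libraries labelled control. The 3 groups did not overlap, with a rise in CIA against control (0.58 ± 0.08, adjusted p = 0.000309) and a fall with luteolin against CIA (-0.98 ± 0.08, adjusted p = 8.71e-06).

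Of 18 other genes of fatty acid synthesis and activation, 3 rose and 6 fell in CIA against control, 8 rose and 2 fell in CIA with luteolin against CIA, and 8 rose and 2 fell in CIA with luteolin against control. Over all genes tested, 26.6%, 23.1% and 24.2% rose and 24.5%, 24.2% and 20.8% fell in the same order. Acsl1, a synthetase that joins long-chain fatty acids to coenzyme A, was at 258, 205 and 272 CPM in CIA with luteolin, 29.02, 27.4 and 47.6 CPM in CIA and 67.6, 70.5 and 53.7 CPM in libraries labelled control. Luteolin values were far above both other groups and CIA values were lowest, with -0.88 ± 0.20, adjusted p = 0.0044 in CIA against control and 2.82 ± 0.21, adjusted p = 3.24e-06 in CIA with luteolin against CIA. Its relative Acsl5 rose with luteolin against CIA (0.75 ± 0.08, adjusted p = 3.61e-05), as did Hsd17b12, a reductase of fatty acid elongation, at 68.3, 69.4 and 72.2 CPM in CIA with luteolin and 36.7, 35.04 and 33.1 CPM in CIA (adjusted p = 5.55e-05). In CIA against control Hsd17b12 was at -0.68 ± 0.11, adjusted p = 0.000719.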

How the data were processed

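RNA from mouse spleen cells labelled CD4+ T cells was sequenced as paired reads from a stranded mRNA kit, per the labels' protocols. The authors deposited raw counts per gene, made with featureCounts (Subread 1.5.1). Per the labels' protocols reads were mapped with STRA (2.5.3a, as written there) to CHOK1GS, a hamster assembly, whereas the submitters' processing notes name mm39 and Trimmomatic 0.36, and the table's mouse gene names and coordinates are those of mm39. The strand setting is not given in the sources used here. Even values made up 73.4% of counts from 1 to 10, against 52.8% from 201 to 1000, as when both mates of a pair are counted, so counts are not independent molecules.

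All 9 libraries were fitted in edgeR 4.0.16 (R 4.3.3) with 1 term per group, filterByExpr, TMM scaling, the 2-sided quasi-likelihood test and Benjamini-Hochberg adjustment over 19348 genes. Log2 fold changes are given ± SE, as the fold change over the square root of F. The script was tested on simulated counts with 200 changed genes. There, 22% of 1.5-fold changes were recovered in CIA against control, 18% with luteolin against CIA and 26% with luteolin against control. For 2-fold changes the shares were 68%, 62% and 58%. Far fewer genes changed there than were called in the data, so these shares need not hold for the members. Alternatives were DESeq2 1.42.0, RLE size factors, 2 other filters, 6-library fits, a replicate block, each library left out and a 2-fold threshold. Promoter windows came from RefSeq GRCm38.p6.

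The members and gene lists were chosen with earlier results of these data known. From the B cell list 1 marker is not reported here and is left out of its sums. Values per library are given for members called at 2-fold or more in CIA against control or in CIA with luteolin against CIA, for the SREBP system and for the exporters. Of each further list the 3 genes with the smallest p in CIA with luteolin against CIA are named. The other members shown per library, and the 4 promoters, were chosen after their values were seen.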

Additional observations from a re-analysis of the deposited data

How the results depend on the processing

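Over 102 member results (34 members in 3 comparisons), the 12 reversed values with 1 library left out and the 8 under other settings were all of results without a call, near 0 except for Scd1. They were Insig2 in CIA against control (0 with the 1-CPM filter, and 0.01, 0.02 and 0.05 with a library left out), Fasn in CIA against control (0.06), Tm7sf2 (-0.03) and Scd1 (0.26) in CIA with luteolin against CIA, and, in CIA with luteolin against control, Acat2 (0.04 and 0), Pmvk (0.01 and 0.02) and Srebf1 (0.01, 0.02 and 0.03). Leaving each library out gave -0.07 to 0.05 for Insig2 and -0.16 to 0.06 for Fasn in CIA against control, -0.03 to 0.17 for Tm7sf2 and -1.03 to 0.26 for Scd1 in CIA with luteolin against CIA, and -0.22 to 0.04 for Acat2, -0.02 to 0.02 for Pmvk and -0.01 to 0.03 for Srebf1 in CIA with luteolin against control. With at least 2-fold required as well, 4148, 3658 and 3669 genes were called in CIA against control, CIA with luteolin against CIA and CIA with luteolin against control, sterol enzymes called higher were 0, 1 and 1 and called lower 0, 0 and 0, and fatty acid enzymes called higher were 1 in CIA against control and 1 in CIA with luteolin against CIA, and called lower 1 in CIA against control and 1 in CIA with luteolin against control. In CIA against control the sterol enzyme called higher was lost (0) with no filter and with only the 6 libraries compared. With no filter, fatty acid enzymes called lower were 1 in CIA with luteolin against CIA and sterol enzymes called lower 1 in CIA with luteolin against control, where only 6 libraries gave 5. Fatty acid enzymes called lower in that comparison were 1 with RLE size factors, no filter, the 1-CPM filter or the replicate block. With each library left out, genes called ranged over 8073 to 11065, 7289 to 9884 and 6835 to 10306 in the same order of comparisons. Sterol enzymes called higher ranged over 0 to 2, 9 to 9 and 2 to 3, and called lower over 10 to 11, 0 to 2 and 1 to 5. Fatty acid enzymes called higher ranged over 2 to 3, 3 to 5 and 3 to 3, and called lower over 1 to 4, 0 to 1 and 1 to 2. Among other member calls, fitting only the 6 libraries compared ended those of Srebf2, Stard4, Abcg1 and Acaca in CIA against control. Fitting with no filter ended those of Stard4 in CIA against control, Insig2 and Stard4 in CIA with luteolin against CIA, and Lss, Cyp51, Ebp and Scap in CIA with luteolin against control. No filter also added calls for Scd2 in CIA against control (-0.40) and Scd1 in CIA with luteolin against CIA (-0.56), and 6 libraries added Hmgcs1, Fdft1 and Sc5d in CIA with luteolin against control. The cause of these changes was not tested beyond the construction of each setting. Same-numbered libraries correlated at 0.007 to 0.143 in their deviations from the group means, so the numbers were not taken as pairs, and the replicate block ended the calls of Fads1 in CIA against control (0.45) and Acly in CIA with luteolin against control (-0.24) and no other member's call.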

Other observations

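Branches that leave or oppose the 2 synthetic pathways gave mixed values. Of 10 isoprenoid branch genes, which turn farnesyl diphosphate into dolichol, ubiquinone and protein anchors, 1 rose and 2 fell in CIA against control, and 3 rose and 2 fell in CIA with luteolin against CIA. Over all genes tested, 26.6% and 23.1% rose and 24.5% and 24.2% fell in these 2 comparisons. Nus1, a subunit of the dolichol-making prenyltransferase, was at 60.2, 51.3 and 56.3 CPM in CIA with luteolin, 31.2, 32.7 and 33.9 CPM in CIA and 40.3, 42.2 and 33.5 CPM in libraries labelled control, and rose with luteolin against CIA (0.78 ± 0.10, adjusted p = 0.00017). Dhdds, its catalytic partner, also rose (0.39 ± 0.10, adjusted p = 0.00764), and Ggps1, which makes geranylgeranyl diphosphate from the product of Fdps, fell (-0.55 ± 0.10, adjusted p = 0.00157).

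Of 10 tested fatty acid oxidation genes, 5 rose and 2 fell in CIA against control, 1 rose and 3 fell in CIA with luteolin against CIA, and 6 rose and none fell in CIA with luteolin against control. Over all genes tested, 26.6%, 23.1% and 24.2% rose and 24.5%, 24.2% and 20.8% fell in the same order. Cpt1a, which admits long-chain fatty acids to mitochondria, was at 37.5, 40.7 and 34.8 CPM in CIA with luteolin, 44.6, 51.98 and 53.9 CPM in CIA and 29.6, 31.2 and 31.3 CPM in libraries labelled control. The groups did not overlap, with 0.71 ± 0.10, adjusted p = 0.000239 in CIA against control and -0.41 ± 0.10, adjusted p = 0.00525 in CIA with luteolin against CIA. Ppard, a lipid-sensing receptor, moved the same way (0.92 ± 0.13, adjusted p = 0.00027 and -0.48 ± 0.13, adjusted p = 0.0106). Acadm, the medium-chain dehydrogenase, moved the opposite way (-0.38 ± 0.10, adjusted p = 0.00787 and 0.69 ± 0.10, adjusted p = 0.000225).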
